A study of Mus musculus with 10 samples.

Results

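Neutrophil granule genes encode the proteins that neutrophils pack, in a fixed order during maturation, into primary (azurophil), secondary (specific) and later granules. The 10 genes described here were *Elane*, *Prtn3*, *Ctsg* and *Mpo* of the primary granules, *Ngp*, *Ltf*, *Camp* and *Lcn2* of the secondary granules, and *S100a8* and *S100a9*, whose products fill the cytosol of neutrophils. They were chosen by name and read by the probe set of highest mean signal among probe sets annotated to 1 gene symbol, so they are 10 of the 19937 genes named in this way. All 10 were above background on at least 1 of the 10 arrays, as were 13571 of the 19937 named genes. Background was set on each array as the 95th percentile of 1027 olfactory receptor genes and lay between 5.56 and 5.78 on the log2 scale.

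The arrays measured total RNA of 3 cell types grown from mouse bone marrow, with 1 array for each condition and strain C57BL6/N in every label. Bone marrow-derived basophils (BMBs) grew in interleukin 3 and were isolated as c-kit- DX5+ cells, and mast cells grew in interleukin 3 for longer. Bone marrow-derived eosinophils (BMEos) grew in Flt3 ligand and stem cell factor, followed by interleukin 5. Each cell type came from wild-type (B6) and from *Slpi*-/- mice, which lack secretory leukoprotease inhibitor (SLPI) in all cells. BMBs were left alone or took up IgE against trinitrophenol for 1 h and then met the antigen, trinitrophenol-ovalbumin, for 12 h. BMEos were left alone or received lipopolysaccharide (LPS) for 3 h, and mast cells were measured unstimulated only. The sources do not say how many mice gave the cells of an array, so the p-values below cover the spread between these arrays, and the number of arrays limits the precision.

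SLPI is a small secreted inhibitor of serine proteases. Neutrophil elastase, the product of *Elane*, and cathepsin G, the product of *Ctsg*, are its best known targets, whereas proteinase 3, the product of *Prtn3*, resists it. Transcription of the primary granule genes peaks in promyelocytes, under PU.1 (an ETS family factor, encoded by *Spi1*), and secondary granule genes follow at the myelocyte stage, where C/EBP-epsilon (encoded by *Cebpe*) is required. Mature neutrophils keep the proteins long after most of these transcripts have gone. Mouse basophils and eosinophils descend from progenitors that also give rise to neutrophils, and eosinophils need C/EBP-epsilon too.

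The promoters were searched for letters that these regulators are known to bind. RefSeq promoters (GRCm38.p6, from 250 bases before to 50 after the start) were found for all 10 genes. The letters AGGAAGT, an ETS core searched on both strands and chosen with these promoters in view, occurred in 5 of the 10 promoters and in 9.35% of all 32851 promoters of this length. All 4 primary granule genes carried it, and S100a8 carried it on the opposite strand. The windows of the primary granule genes are shown because they share these letters, which are in capitals, and each is read along the gene's strand.
Elane (chr10:79886217-79886245, plus strand): gtgtcccagggAGGAAGTagggctgtggc
Prtn3 (chr10:79879562-79879590, plus strand): aaactggaaggAGGAAGTgggacccacag
Ctsg (chr14:56102763-56102791, minus strand): agaggaagaaaAGGAAGTagtcacctgtt
Mpo (chr11:87793550-87793578, plus strand): tggagagagagAGGAAGTtgcctttgtcc

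The C/EBP core TTNNGNAA, where N is any base, occurred on either strand in 5 of the 10 promoters and in 40.7% of all promoters, so a match is common. *Ngp* held 3 matches, *Ltf* and *S100a9* held 2 each, and *Lcn2* and *S100a8* held 1 each. *Ngp* and *Ltf*, whose signals moved together over the arrays, each held the same 8 letters, TTGGGCAA, in capitals in the windows shown for that reason.
Ngp (chr9:110419786-110419815, plus strand): accggcagttcTTGGGCAAggcagtctcaa
Ltf (chr9:111019206-111019235, plus strand): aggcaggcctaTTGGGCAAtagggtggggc
Lcn2 (chr2:32387937-32387966, minus strand): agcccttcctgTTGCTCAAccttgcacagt
In *Lcn2* the capitals are a match on the opposite strand, so they read as the reverse complement of the core. That window is shown because that gene alone among the 10 was called for a stimulus, LPS in BMEos. A match of letters is a description of sequence and not a binding site.

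Several of the genes lie beside each other. *Prtn3* and *Elane* are neighbours on chromosome 10, and *S100a8* and *S100a9* are neighbours on chromosome 3, with 0 protein-coding genes between them in either pair. *Camp*, *Ngp* and *Ltf* share chromosome 9, with 8 protein-coding genes between *Camp* and *Ngp* and 20 between *Ngp* and *Ltf*. *Ctsg* on chromosome 14 adjoins *Mcpt8*, which encodes a basophil protease.

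The cell type labels were checked against marker lists. The 8 measured eosinophil markers were above background on all 4 BMEos arrays, and the 10 measured basophil markers were above background on all 4 BMB arrays. Of 12 measured mast cell markers, 9 and 10 were above background on the mast cell arrays, and 8 on each BMB array. Of the 10 basophil markers, 8 were above background on both mast cell arrays and 5 to 6 on the BMEos arrays. The basophil and mast cell lists share *Gata2*, *Cpa3* and *Ms4a2*, so these counts separate BMBs from mast cells poorly. In the check of the deleted gene, *Slpi* had log2 signals of 11.42 and 11.33 on the B6 BMB arrays and of 6.55 and 6.35 on the *Slpi*-/- BMB arrays, and of 8.08 and 7.96 on the B6 BMEos arrays against 6.41 and 5.93 on the *Slpi*-/- BMEos arrays. Of 9 measured neutrophil markers, 4 to 6 were above background on the BMB arrays, 6 to 7 on the BMEos arrays and 2 to 3 on the mast cell arrays. *Ly6g*, a surface protein used to gate neutrophils, read 10.95 to 12.68 in BMBs, 8.70 to 9.67 in BMEos and at most 5.70 in mast cells. The chemokine receptor *Cxcr2* read at least 11.25 in BMBs, 8.09 to 9.57 in BMEos and at most 4.34 in mast cells. Between BMBs and mast cells *Il1r2* went the other way, at 9.2 and 9.4 in mast cells and 5.04 to 5.54 in BMBs. In BMEos *Il1r2* read 7.88 to 9.99. *Csf3r*, the receptor for the neutrophil growth factor G-CSF, was not above background on any array. In such bulk RNA, fewer cells of a type and less RNA per cell cannot be told apart.

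One array stood apart in these genes. On the B6 unstimulated BMB array, *Mpo*, *S100a8*, *Ngp*, *Elane* and *Prtn3* were each at least 1 log2 unit above all 3 other BMB arrays. Only 12 of the 13571 genes above background, or 0.0884%, did this, and 5 of the 12 were among the granule genes. This count was chosen after the values were seen. The gap to the next BMB array was 2.84 for *Mpo*, 1.75 for *S100a8*, 1.68 for *Ngp*, 1.66 for *Elane* and 1.66 for *Prtn3*, and these were the 5 widest gaps among the 13571 genes. The other 7 genes were *Clec12a*, *Ms4a6c*, *Ly6a2*, *Kif11*, *Ccnb2*, *Ube2c* and *Nusap1*, the last 4 of which act in cell division. Counted in the same way, the other 3 BMB arrays had 19, 11 and 14 such genes, with 0 granule genes among them. Of the 10 granule genes, 9 were highest on this array among the 4 BMB arrays, against 24.5% of all 13571 genes. Of 12 progenitor markers, 6 were highest there, and so were 4 of 8 neutrophil markers and 4 of 10 other primary granule genes. The median gap to the highest of the other BMB arrays was -0.04 for the progenitor markers, -0.12 for all genes and 1.31 for the granule genes. *Cd34*, a surface marker of progenitors, read 8.62 on this array and 8.97, 9.85 and 9.94 on the others. *Ms4a3*, another progenitor marker, read 6.80 on this array and 5.39, 5.25 and 5.99 on the others. *Kit* and *Myb* were also among the 6 that were highest there. *S100a8* passed the background filter through this array alone. All 12 progenitor markers were above background on this array, against 9, 9 and 10 on the others. The part of progenitor cells or of cell division in the granule gene signals was not tested.

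**Figure D1:**
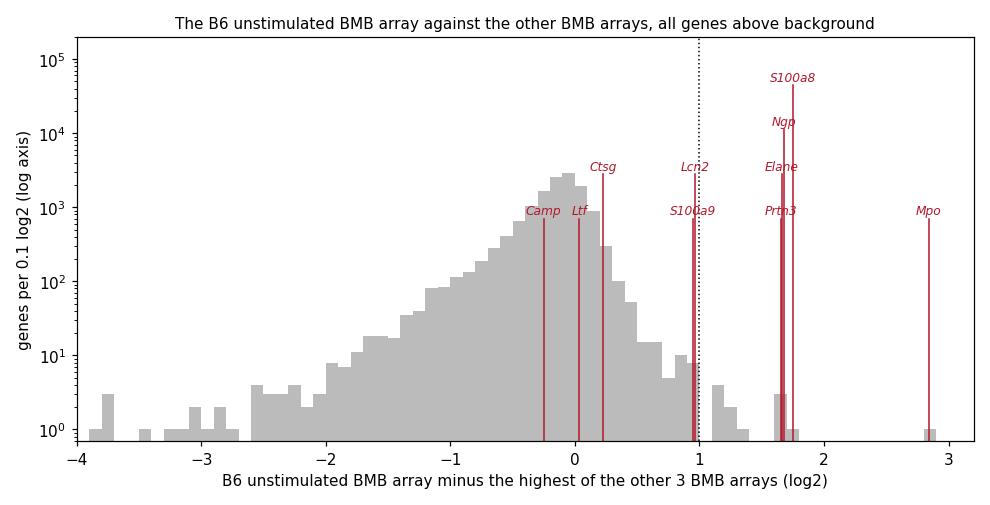
Histogram of the difference, in log2 units, between the B6 unstimulated BMB array and the highest of the other 3 BMB arrays, for the 13571 genes above background; the count axis is logarithmic, red lines mark the 10 granule genes and the dotted line marks 1 log2 unit. *Mpo* lies farthest to the right at 2.84, and *S100a8*, *Ngp*, *Elane* and *Prtn3* lie together between 1.66 and 1.75.

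Among the primary granule proteases, *Elane* encodes neutrophil elastase, which digests elastin and bacterial proteins. Its log2 signal was 7.14 on the B6 unstimulated BMB array, 5.47 in *Slpi*-/- BMBs, 5.16 in B6 BMBs with IgE and 5.17 in *Slpi*-/- BMBs with IgE. It was 5.72 and 5.51 in B6 and *Slpi*-/- mast cells, 5.50 and 5.73 in unstimulated BMEos and 5.45 and 5.52 in BMEos with LPS. *Elane* was thus above background on 2 of 10 arrays, and on 1 of them, the *Slpi*-/- BMEos array, by less than 0.1 log2 unit.

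*Prtn3*, the neighbour of *Elane*, encodes proteinase 3, the autoantigen of a vasculitis. Its signal was 7.25 on the B6 unstimulated BMB array and 5.57, 5.60 and 5.55 on the *Slpi*-/- BMB, B6 BMB IgE and *Slpi*-/- BMB IgE arrays. It was 5.46 and 5.23 in B6 and *Slpi*-/- mast cells, 5.77 and 5.85 in unstimulated B6 and *Slpi*-/- BMEos and 5.79 and 5.46 with LPS. With the background set at the 99th percentile instead, it was above it on 1 array, the same one as *Elane*.

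*Mpo* encodes myeloperoxidase, the enzyme that makes hypochlorous acid. The signal was 8.84 on the B6 unstimulated BMB array against 5.995 in *Slpi*-/- BMBs, 5.60 in B6 BMBs with IgE and 5.84 in *Slpi*-/- BMBs with IgE. Mast cells read 5.56 and 5.75, unstimulated BMEos 6.24 and 6.43, and BMEos with LPS 6.32 and 6.12, in the order B6 and *Slpi*-/-. *Mpo* was above background on all 4 BMEos arrays.

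*Ctsg* behaved differently from the other 3. This gene of cathepsin G, a chymotrypsin-like protease, read 10.44 in B6 BMBs, 9.56 in *Slpi*-/- BMBs, 9.65 in B6 BMBs with IgE and 10.21 in *Slpi*-/- BMBs with IgE. It read 6.91 and 7.04 in B6 and *Slpi*-/- mast cells, and 5.30, 5.50, 5.60 and 5.42 in B6, *Slpi*-/-, B6 LPS and *Slpi*-/- LPS BMEos. Every BMB array and both mast cell arrays were above background, and no BMEos array was. Of the genes of these SLPI targets, *Ctsg* was above background on all 4 BMB arrays and *Elane* was not above it on 3 of the 4. The neighbouring *Mcpt8* read 12.72 to 13.29 in BMBs and at most 5.58 elsewhere.

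**Figure D2:**
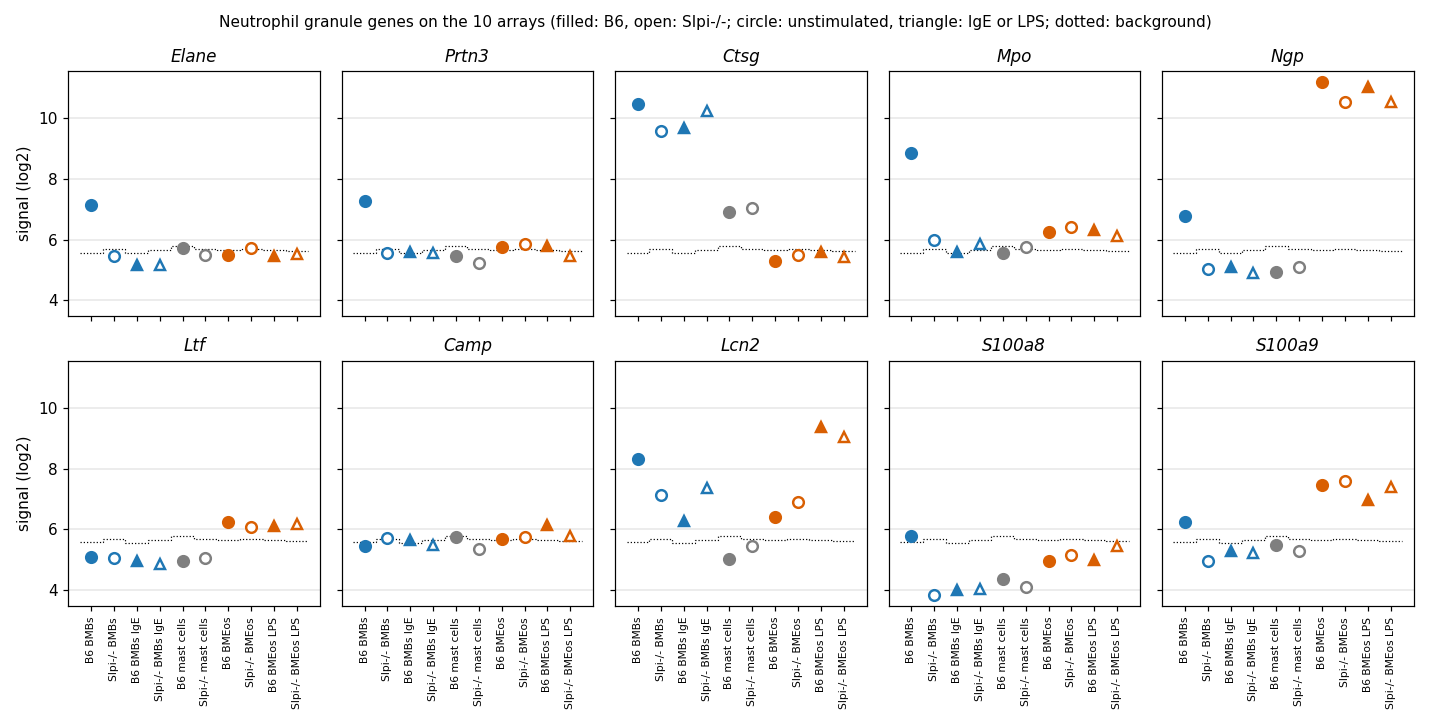
Log2 signal of each of the 10 granule genes on the 10 arrays, with filled symbols for B6, open symbols for Slpi-/-, circles for unstimulated cells and triangles for IgE in BMBs or LPS in BMEos, 1 array per point; the dotted line is each array's background. *Elane*, *Prtn3* and *Mpo* are raised on the first array, *Ctsg* is high on all 4 BMB arrays, *Ngp* is high on all 4 BMEos arrays, and *Lcn2* is highest on the LPS arrays.

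*Ngp* encodes neutrophilic granule protein, a cystatin-like protein of secondary granules. Its signal in BMEos was 11.18 in B6, 10.51 in *Slpi*-/-, 11.02 in B6 with LPS and 10.52 in *Slpi*-/- with LPS. On the BMB arrays it was 6.77 in B6, 5.02 in *Slpi*-/-, 5.09 in B6 with IgE and 4.91 in *Slpi*-/- with IgE, and on the mast cell arrays 4.94 in B6 and 5.11 in *Slpi*-/-. *Ngp* was above background on every BMEos array, and elsewhere on the B6 unstimulated BMB array alone.

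*Ltf* encodes lactoferrin, an iron-binding protein, and was likewise higher in BMEos. It read 6.26, 6.07, 6.11 and 6.17 in B6, *Slpi*-/-, B6 LPS and *Slpi*-/- LPS BMEos. It read 5.08, 5.05, 4.97 and 4.88 on the BMB arrays in the order B6, *Slpi*-/-, B6 IgE and *Slpi*-/- IgE, and 4.95 and 5.05 on the B6 and *Slpi*-/- mast cell arrays. Only the BMEos arrays were above background.

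*Camp*, the gene of the antimicrobial peptide cathelicidin, stayed near the background. It read 5.47, 5.72, 5.64 and 5.48 on the BMB arrays (B6, *Slpi*-/-, B6 IgE, *Slpi*-/- IgE) and 5.76 and 5.37 on the B6 and *Slpi*-/- mast cell arrays. It read 5.67, 5.76, 6.16 and 5.80 in B6, *Slpi*-/-, B6 LPS and *Slpi*-/- LPS BMEos. The cell types overlapped.

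*Lcn2* encodes lipocalin 2, which binds bacterial siderophores and is also induced in many cells by inflammation. It read 8.32 in B6 BMBs, 7.13 in *Slpi*-/- BMBs, 6.29 in B6 BMBs with IgE and 7.36 in *Slpi*-/- BMBs with IgE. In BMEos it read 6.42 in B6 and 6.90 in *Slpi*-/- without LPS, and 9.37 in B6 and 9.03 in *Slpi*-/- with LPS, while mast cells read 5.04 in B6 and 5.45 in *Slpi*-/-. It was above background on all BMB and BMEos arrays and on neither mast cell array.

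*S100a8* and *S100a9* encode the subunits of calprotectin, a metal-binding protein of the neutrophil cytosol. *S100a8* read 5.78 on the B6 unstimulated BMB array, the single array where it was above background. It read 3.84, 3.997 and 4.04 on the *Slpi*-/-, B6 IgE and *Slpi*-/- IgE BMB arrays, 4.37 and 4.12 on the B6 and *Slpi*-/- mast cell arrays and 4.98, 5.16, 5.00 and 5.45 on the B6, *Slpi*-/-, B6 LPS and *Slpi*-/- LPS BMEos arrays. *S100a9* read 6.23 in B6 BMBs, 4.95 in *Slpi*-/- BMBs, 5.28 in B6 BMBs with IgE and 5.22 in *Slpi*-/- BMBs with IgE, 5.50 and 5.28 in B6 and *Slpi*-/- mast cells and 7.45, 7.60, 6.97 and 7.40 in B6, *Slpi*-/-, B6 LPS and *Slpi*-/- LPS BMEos. *S100a9* was above background on every BMEos array, and elsewhere on the B6 unstimulated BMB array alone. Levels of 2 genes are not compared here, since probe sets differ in their response.

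The 3 cell types were then compared over the 6 unstimulated arrays, with limma and Benjamini-Hochberg adjustment over 12998 genes. Differences are in log2 signal with their SE, and a change was called at an adjusted p under 0.05. Between BMEos and mast cells 51.1% of all genes were called, 24.3% higher and 26.8% lower in BMEos, and 5 of the 10 granule genes were called, a share like that of all genes. *Mpo* was not among them, at 0.67 ± 0.68 (limma adjusted p = 0.45). *Ngp* was higher in BMEos by 5.82 ± 0.38 (limma adjusted p = 2.32e-05), *S100a9* by 2.14 ± 0.30 (0.00101), *Lcn2* by 1.41 ± 0.38 (0.0179) and *Ltf* by 1.16 ± 0.11 (0.000138). *Ctsg* was lower in BMEos, with a difference of -1.58 ± 0.25 (limma adjusted p = 0.00176). Because one side of these comparisons was not above background, the folds are bounds measured from the background: at least 34.7-fold for *Ngp*, 3.48-fold for *S100a9*, 1.91-fold for *Lcn2*, 1.35-fold for *Ltf* and 2.48-fold lower for *Ctsg*. In a fit on all 10 arrays *Lcn2* differed by 1.21 without the B6 and by 1.62 without the *Slpi*-/- mast cell array. It differed by 1.66 without the B6 and by 1.16 without the *Slpi*-/- unstimulated BMEos array. Leaving any unstimulated array out of that fit leaves the other of its cell type fitted exactly, so the spread between them drops out of the error. Counts of calls from those fits are not read as results.

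Between BMBs and mast cells 36.7% of all genes were called, 18.8% higher and 17.9% lower in BMBs. Of the 10 granule genes 2 were called, both higher in BMBs: *Ctsg* by 3.03 ± 0.25 (8.14-fold, limma adjusted p = 0.000124) and *Lcn2* by 2.48 ± 0.38 (at least 4.002-fold, limma adjusted p = 0.00224). Without the B6 unstimulated BMB array, which leaves only the *Slpi*-/- one, these differences were 2.50 and 1.66. *Prtn3* and *Mpo* differed by 1.06 ± 0.37 and 1.76 ± 0.68 with limma adjusted p of 0.0657 and 0.0882, and by 0.26 and 0.24 without that array. In another fit, on all 10 arrays, *Ctsg*, *Lcn2*, *Prtn3* and *Mpo* differed by 2.50, 1.685, 0.29 and 0.28 without the B6 BMB array. Without the *Slpi*-/- BMB array they differed by 3.55, 3.28, 1.84 and 3.23. Each leaves the other unstimulated BMB array fitted exactly, so counts of calls are not read as results.

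Between BMEos and BMBs 39.7% of all genes were called, 18.6% higher and 21.2% lower in BMEos, and 4 of the 10 granule genes were called. In BMEos *Ngp* was higher by 4.95 ± 0.38 (limma adjusted p = 9.43e-05) and *S100a9* by 1.94 ± 0.30 (0.00237), and 1 of the 2 unstimulated BMB arrays was above background for each. *Ltf* was higher by 1.10 ± 0.11 (limma adjusted p = 0.000304), at least 1.45-fold. *Ctsg* was lower, with a difference of -4.60 ± 0.25 (limma adjusted p = 2.03e-05) or at least 20.2-fold. *Lcn2* differed by -1.07 ± 0.38 (limma adjusted p = 0.0616) and by -0.25 without the B6 unstimulated BMB array. Without that array *Ctsg*, *Ngp*, *Ltf* and *S100a9* differed by -4.08, 5.70, 1.09 and 2.56, with the *Slpi*-/- array as the only unstimulated BMB array. In the fit on all 10 arrays, leaving out an unstimulated BMB array also leaves the other fitted exactly. Counts of calls are then not read as results.

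**Figure D3:**
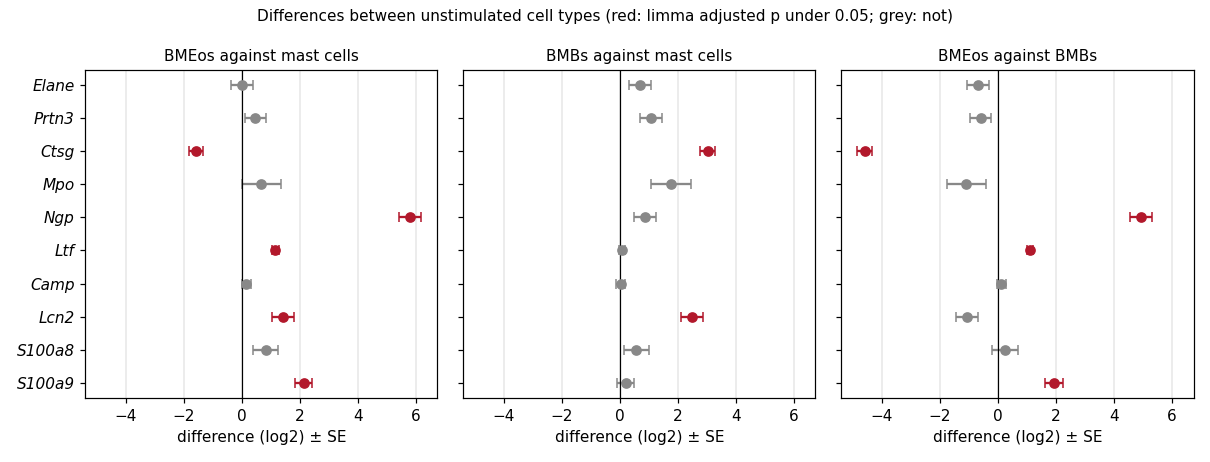
Differences in log2 signal between unstimulated cell types for the 10 granule genes, as points with bars of 1 SE from limma, red where the adjusted p was under 0.05. *Ctsg* is lower in BMEos and higher in BMBs than in mast cells, and *Ngp* has the largest difference, 5.82 between BMEos and mast cells.

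Other granule genes, from lists of known neutrophil granule content, gave the setting. Of 10 tested other primary granule genes, 4 were higher and 2 lower in BMEos than in mast cells (median difference 0.24, against -0.04 over all genes), and 1 was higher and 7 lower in BMEos than in BMBs (median -0.51, against -0.03). *Ctsc*, the protease that activates elastase and cathepsin G, was lower in BMEos than in mast cells by 1.85 ± 0.16, written as a size (limma adjusted p = 0.000102). *Srgn*, the proteoglycan that holds granule proteases, read 12.83 to 13.11 on the 10 arrays, and *Cd63*, a granule membrane protein, read 10.72 to 11.43. Of 20 tested other secondary and tertiary granule genes, 15 were higher and 0 lower in BMEos than in mast cells (median 1.93), and 12 were higher and 0 lower in BMBs than in mast cells (median 1.03, against -0.01 over all genes). *Pglyrp1*, which encodes a bactericidal protein, read 12.49 to 12.58 in BMEos, 10.72 to 11.50 in BMBs and 5.56 and 5.86 in mast cells. *Adam8*, a metalloprotease, read 11.68 to 11.97 in BMEos, 11.35 to 11.54 in BMBs and 7.34 and 7.54 in mast cells. Both were called higher in BMEos and in BMBs than in mast cells, while *Cyba*, the oxidase subunit p22phox, differed by 1.92 ± 0.09 and 1.06 ± 0.09 in the same comparisons (limma adjusted p = 6.04e-06 and 0.000176).

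Regulators and inhibitors were counted in the same fits. Of 17 tested regulators of granule genes, 8 were higher and 4 lower in BMEos than in mast cells (24.3% and 26.8% of all genes), and 5 were higher and 5 lower in BMBs than in mast cells (18.8% and 17.9% of all genes). *Spi1*, the gene of PU.1, read 9.64 to 11.42 on every array. *Cebpe* and *Cebpa*, chosen after their values were seen because of the C/EBP letters above, had opposite patterns. *Cebpe* read 10.29 to 10.74 in BMEos and at most 6.12 elsewhere, and *Cebpa* read 9.52 to 10.21 in BMBs and at most 6.83 elsewhere. Among protease inhibitors, 3 of 10 tested were higher and 5 lower in BMEos than in mast cells. *Serpinb1a*, an inhibitor of elastase and cathepsin G, read 12.22 and 12.30 in mast cells, 10.29 to 11.68 in BMBs and 5.78 to 6.56 in BMEos, an order that was not that of *Slpi*, which mast cells had at 6.53 and 6.47.

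Loss of SLPI was compared next, because SLPI acts on the products of *Elane* and *Ctsg*. In BMBs, with a pair of arrays without and a pair with IgE in a fit on all 10 arrays, limma called 1 of 13571 genes (0.00737%), *Slpi* itself, and 0 of the 10 granule genes. At an unadjusted p under 0.05, which 6.76% of all genes reached, 4 of the 10 were lower in *Slpi*-/- BMBs: *Ngp* by -0.97 ± 0.32, *Prtn3* by -0.87 ± 0.34, *Elane* by -0.83 ± 0.34 and *S100a9* by -0.67 ± 0.26, with limma adjusted p between 0.628 and 0.734. These values rested on the unstimulated pair. Without the B6 unstimulated BMB array the differences were -0.18, -0.05, 0.00 and -0.05. With the IgE pair left out they were -1.75, -1.68, -1.66 and -1.28. Each of these fits sets 1 array against 1 in BMBs, so their calls are not read as results. *Ctsg* was lower by 0.87 in *Slpi*-/- than in B6 BMBs without IgE and higher by 0.56 with IgE, so its direction differed between the pairs.

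In BMEos, limma again called 1 gene of 13571 (0.00737%) for genotype and 0 granule genes, none of which had an unadjusted p under 0.05. *Ngp* was lower in *Slpi*-/- than in B6 BMEos in both pairs, 10.51 against 11.18 without LPS and 10.52 against 11.02 with LPS. Its difference was -0.59 ± 0.32 (limma adjusted p = 0.922). The genotype difference in BMEos minus that in BMBs called 1 gene (0.00737%), which was *Slpi*, and 0 granule genes, with *S100a9* alone at an unadjusted p under 0.05 (0.96 ± 0.37, limma adjusted p = 0.806). Over the 5 settings of cell type and stimulus together, 0 genes of 13571 (0%) were called for genotype, and 722 had an unadjusted p under 0.05. Among the granule genes *Ngp* was the one that did, at -0.59 ± 0.23 (limma adjusted p = 0.914). With 4 residual degrees of freedom at most, such p-values do not show that the genotypes were alike.

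IgE and antigen in BMBs changed 22.8% of all genes, 12.2% higher and 10.6% lower, and 0 of the 10 granule genes. At an unadjusted p under 0.05, which 34.8% of all genes reached, 4 were lower with IgE, a share like that of all genes: *Mpo* by -1.69 ± 0.62, *Elane* by -1.14 ± 0.34, *Ngp* by -0.89 ± 0.32 and *Prtn3* by -0.84 ± 0.34, with limma adjusted p between 0.0579 and 0.138. The genotypes were unlike. In B6 BMBs *Mpo* differed by -3.23 and *Lcn2* by -2.03 between IgE and no stimulus, whereas in *Slpi*-/- BMBs they differed by -0.15 and 0.22. Without the B6 unstimulated BMB array the fitted differences of *Mpo*, *Elane*, *Ngp* and *Prtn3* were -0.15, -0.31, -0.11 and -0.02. With the *Slpi*-/- pair left out they were -3.23, -1.97, -1.68 and -1.66. Each of these fits sets 1 array against 1 in BMBs, so their calls are not read as results. Of 8 tested neutrophil markers, 2 were lower with IgE, and *Ly6g* was one of them at -1.48 ± 0.10 (limma adjusted p = 0.000822).

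For LPS in BMEos 28.9% of all genes were called, 12.7% higher and 16.2% lower, and 1 of the 10 granule genes, *Lcn2*. The *Lcn2* signal was 6.42 and 6.90 without LPS and 9.37 and 9.03 with LPS in B6 and *Slpi*-/- BMEos. It rose by 2.54 ± 0.48 (5.82-fold, limma adjusted p = 0.0108), by 2.96 in B6 and 2.12 in *Slpi*-/- BMEos. With the B6 pair left out the rise was 2.12, from 1 array against 1. The other 9 genes differed by -0.34 to 0.26 and none had an unadjusted p under 0.05. *Retnlg*, a neutrophil gene that read 10.04 and 10.60 in unstimulated BMEos, was lower with LPS by -0.61 ± 0.17 (limma adjusted p = 0.0367), and of 8 tested neutrophil markers 2 rose and 4 fell. The LPS arrays also differed from all other arrays in sex-linked genes: *Xist* read 9.72 and 9.66 with LPS and at most 4.90 on the other arrays, and *Eif2s3y* read 3.22 and 3.54 with LPS and at least 7.62 elsewhere. LPS and this difference between the arrays cannot be told apart.

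**Figure D4:**
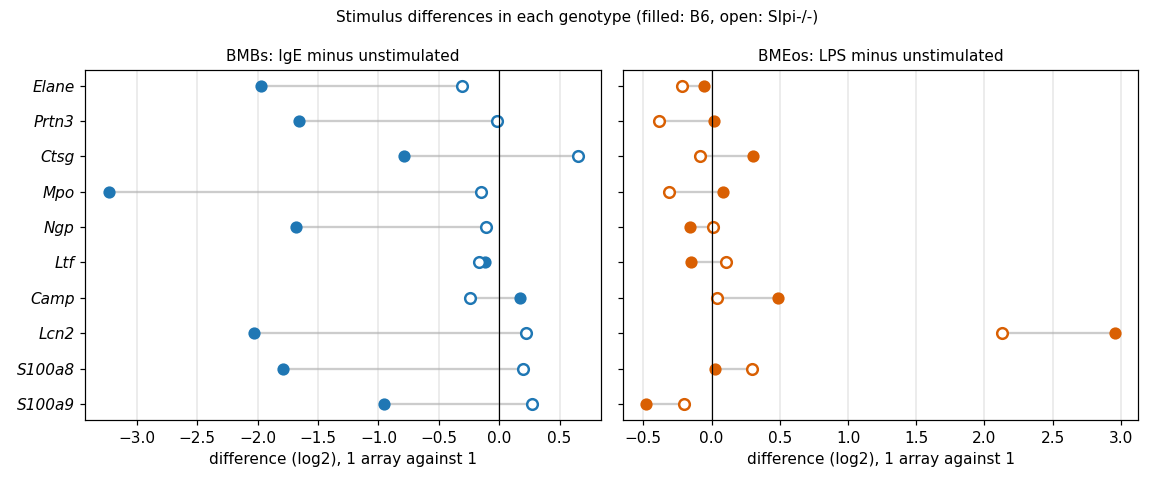
Difference in log2 signal between the stimulated and the unstimulated array of each genotype, for IgE in BMBs and LPS in BMEos, with filled points for B6, open points for Slpi-/- and a grey line joining them, each point 1 array against 1 array. In BMBs the B6 points lie far below 0 for *Mpo* (-3.23) and *Lcn2* (-2.03) and the Slpi-/- points near 0, and in BMEos both points of *Lcn2* lie above 2.

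The genes fell into groups when correlated over the 10 arrays, which is a description of cell types and of 1 array rather than of independent samples. *Elane*, *Prtn3* and *Mpo* had Pearson r of 0.90 to 0.97 with each other over the 10 arrays, and of 0.10 to 0.72 over the 9 arrays left without B6 unstimulated BMBs. *Ngp*, *Ltf* and *S100a9* had r of 0.94 to 0.99 over 10 arrays and of 0.97 to 0.99 over 9. *Ctsg* had r of -0.78, -0.84 and -0.76 with these 3. Among all genes above background, those most like *Elane* over the 10 arrays were *Mpo* (0.93), *Hp* (0.90) and *Prtn3* (0.90), and *Hp*, the gene of haptoglobin, was likewise among the 3 most like *Prtn3* and *Mpo*. The genes most like *Ctsg* were *Sfxn1*, *Osbpl3* and *Dnase2b* (0.99 each), and those most like *Ngp* were *Spaca9*, *Mpp7* and *Gm5150* (0.99 each). *Ltf* was most like *Ethe1*, *Pla2g3* and the eosinophil granule gene *Prg3* (0.99 to 1.00). *Lcn2* was most like *Il6ra* (0.95), *Ccng1* (0.95) and *Ifnar1* (0.94), *S100a9* like *Rab5a*, *Clec4b2* and *Tmpo* (0.98 each), *S100a8* like *1700010I14Rik*, *Sprr4* and *Birc5* (0.91 to 0.93), and *Camp* like *Wdr20*, *Gm4793* and *1700049L16Rik* (0.91 to 0.93).

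**Figure D5:**
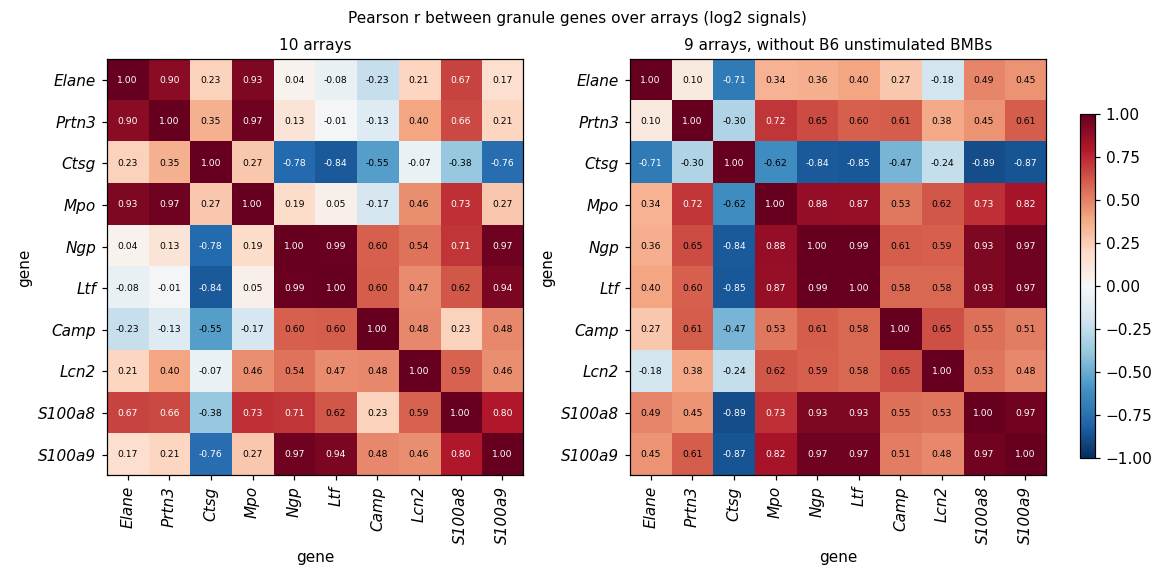
Pearson r between the log2 signals of the 10 granule genes over the 10 arrays and over the 9 arrays left without B6 unstimulated BMBs, from blue (-1) to red (1). The block of *Elane*, *Prtn3* and *Mpo* is strong with that array. Without it *Elane* has r of 0.098 with *Prtn3* and 0.345 with *Mpo*, and *Prtn3* has 0.717 with *Mpo*. *Ngp*, *Ltf* and *S100a9* stay together in both.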

How the data were processed

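Gene expression was profiled on Affymetrix Mouse Gene 1.0 ST arrays, 1 for each of 10 conditions. The authors normalized the scanned signals with RMA in the affy package and deposited log2 signals for 34760 probe sets; the versions of RMA and affy are not given in the sources used here. Probe sets were named through GEO's platform annotation, in which 21640 had 1 gene symbol, 1321 several and 11799 none, and of a gene's probe sets the one with the highest mean was read. Genes above background on at least 1 array of a fit were tested with limma 3.58.1 in R 4.3.3 (lmFit, eBayes, Benjamini-Hochberg at 0.05). Cell types were compared over the 6 unstimulated arrays with genotype as a term. Genotype and stimulus were compared over all 10 arrays in a model of each cell type by genotype, plus IgE and LPS terms. Genotype over the 5 settings had a block per setting. Each fit has 2 or 4 residual degrees of freedom, so its error borrows from all genes. RMA compresses low signals and understates folds near background.

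The genes, lists and tests were chosen with earlier results of these data known. All 10 granule genes are given on all arrays. From other lists, counts and up to 4 genes of highest mean above background are named, with *Slpi*, *Xist* and *Eif2s3y* as checks, and the 3 genes most correlated with each granule gene; any others were chosen after their values were seen. The scripts were tested on simulated data. Promoters came from RefSeq (GRCm38.p6).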

Additional observations from a re-analysis of the deposited data

Results flagged for a closer look

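Dixon's test at the 95% level asks whether the highest or lowest of 4 arrays of a cell type lies far from the rest, as the gap divided by the range. The 4 arrays of a cell type differ in genotype and stimulus, so they are not replicates. Of 17 combinations of gene and cell type tested, 5 exceeded it. Chance flags about 1 in 20 groups of independent replicates, and that rate does not apply here: the 5 come from 1 array and from genes that move together, and *Elane*, *Ngp* and *S100a8* were above background in BMBs on that array alone. All 5 were the B6 unstimulated BMB array as the highest of the BMB arrays: *Prtn3* (0.972), *Ngp* (0.902), *S100a8* (0.900), *Mpo* (0.879) and *Elane* (0.843).

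The difference between IgE and no stimulus had opposite signs in B6 and *Slpi*-/- BMBs for 4 granule genes by at least 1 log2 unit, each from 1 array against 1. The difference in *Slpi*-/- minus that in B6 was 2.26 for *Lcn2*, 1.98 for *S100a8*, 1.44 for *Ctsg* and 1.23 for *S100a9*. This difference between genotypes was not tested, and the B6 value of each rests on the array that stood apart.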

How the results depend on the processing

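The methods' paired t-test with Benjamini-Hochberg adjustment called 0 granule genes between BMEos and mast cells (limma 5), BMBs and mast cells (limma 2), BMEos and BMBs (limma 4) and for LPS in BMEos (limma 1), with 1 residual degree of freedom. In the cell type comparisons, in that order, it called 1, 0 and 0 of all 12998 genes. With so few calls over all genes, its 0 says little about the granule genes. A variance trend called 1 granule gene for IgE in place of 0, *Elane* (limma adjusted p = 0.0381). It also added *Prtn3* between BMBs and mast cells (limma adjusted p = 0.043), beside 38.7% of all genes. Between BMEos and BMBs it added *Lcn2* (limma adjusted p = 0.0376), beside 41.8% of all genes. With single arrays left out of a fit on all 10 arrays, the granule genes called ranged from 4 to 8 between BMEos and mast cells, from 2 to 8 between BMBs and mast cells and from 4 to 9 between BMEos and BMBs. The highest counts came without the *Slpi*-/- BMB array, and 8 also came without the B6 BMB array in the first comparison. With a pair left out, the calls ranged from 0 to 4 for genotype in BMBs, from 0 to 7 for IgE and from 0 to 1 for LPS. The highest of these counts cannot be read as more granule genes called. Without an unstimulated array, the other of its cell type is fitted exactly, so the spread between them drops out of the error. With a pair left out, 1 array is set against 1 in that cell type. The genotype difference of *Elane* in BMBs ranged from -1.66 without the IgE pair to 0.004 without the unstimulated pair. It was 0.004 without the B6 unstimulated BMB array, a setting added after seeing the data. Leaving out pairs was planned as a value alone. Of the other settings (quantile normalization, median centring, averaged probe sets, no filter, a 99th percentile background, other terms), none turned a call around, and each kept the count of granule genes called within 1 of that reported; the stricter background left out *Ltf*. The paired t-test and the fit of 1 cell type alone were not run for the genotype difference between cell types. The cause of these changes was not tested. Signals near background, as for *Camp* and *S100a8*, limit what can be seen.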
